A study of Mus musculus with 6 samples.

Results

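DNA replication genes were examined in whole testes of 8-week-old mice, in 3 libraries labelled Ccdc117ko and 3 labelled WT. The group holds 39 genes chosen by symbol for their roles in origin licensing, the replicative helicase, the sliding clamp and its loader, single-strand binding, priming, lagging-strand joining and nucleotide supply. All 39 symbols were found once each among the 36652 genes of the deposited table. The product of Ccdc117 is a coiled-coil domain protein. The series title links its deficiency to androgen excess and maintained sperm production. The labels give the genotype, the tissue and the age, and describe neither the allele nor whether each library came from 1 animal, so p-values measure only the spread between these samples, which may be technical. The gene-level total of Ccdc117 itself was 3478, 3772 and 3908 normalized counts in Ccdc117ko testes and 3657, 3826 and 3931 in WT testes (log2 change -0.03, SE 0.05, limma adjusted p = 0.763), so this total does not separate the genotypes, and it would miss a short deletion. Directions below compare libraries by these genotype labels, Ccdc117ko over WT.

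Replication starts when the origin recognition complex (ORC) marks an origin and, with Cdc6 and Cdt1, loads the ring-shaped MCM helicase. Cdc45 and the GINS complex then switch the helicase on, RPA coats the exposed single strands, polymerase alpha with primase lays down primers, and the replication factor C (RFC) loader places the PCNA clamp that holds the copying polymerases on DNA. In the adult testis this machinery serves the mitotic divisions of spermatogonia and the last round of DNA synthesis before meiosis, and several of its proteins also act in meiotic recombination and DNA repair.

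The deposited values are log2 of the normalized count plus 1, and the whole reads recovered from them came to 38521519 to 39368277 in the Ccdc117ko libraries and 35791616 to 43461692 in the WT libraries. The members were well covered, with means from 56.8 normalized counts for Pola1 to 8952.5 for Rfc2, and all 39 passed the filter, a mean of 0.5 normalized counts or more. Their median coefficient of variation within a genotype was 5.16% in Ccdc117ko testes and 5.15% in WT testes. The testis germ cell and somatic markers examined were all detected in every library.

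Most replication genes did not pass the test, and the members that did belong to the clamp and its loader. Rfc3, Rfc4 and Pcna rose in Ccdc117ko testes by 0.38, 0.37 and 0.18 on the log2 scale. No member was called lower, and 36 of the 39 were not called in either direction. The 3 calls are 7.69% of the members, against 6.80% of the 32783 genes tested that were called in either direction in limma at an adjusted p under 0.05. Of all genes tested, 3.70% were called higher and 3.10% lower. The share of members called was thus near the background. The members' median log2 change was -0.07, against 0.00 for all genes tested, with 16 members above 0 and 23 below. At an unadjusted p under 0.05 there were 5 members higher and 8 lower, against 11.1% and 11.6% of all genes, 22.7% in either direction. On the recovered reads, limma's voom called the same 3 members, where it called 7.40% of all genes, 4.11% higher and 3.29% lower. The 3 values of a genotype lay wholly above those of the other for 7 members higher and 6 lower in Ccdc117ko testes. This is 33.3% of the members, against 27.0% of all genes tested, 13.7% higher and 13.3% lower. All genes tested reach down to a mean of 0.5 normalized counts, while every member averaged 56.8 or more, so these shares compare unlike levels. The related and marker lists below also hold no gene near that minimum. In whole tissue, fewer cells of a type and less RNA per cell cannot be told apart.

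**Figure D1:**
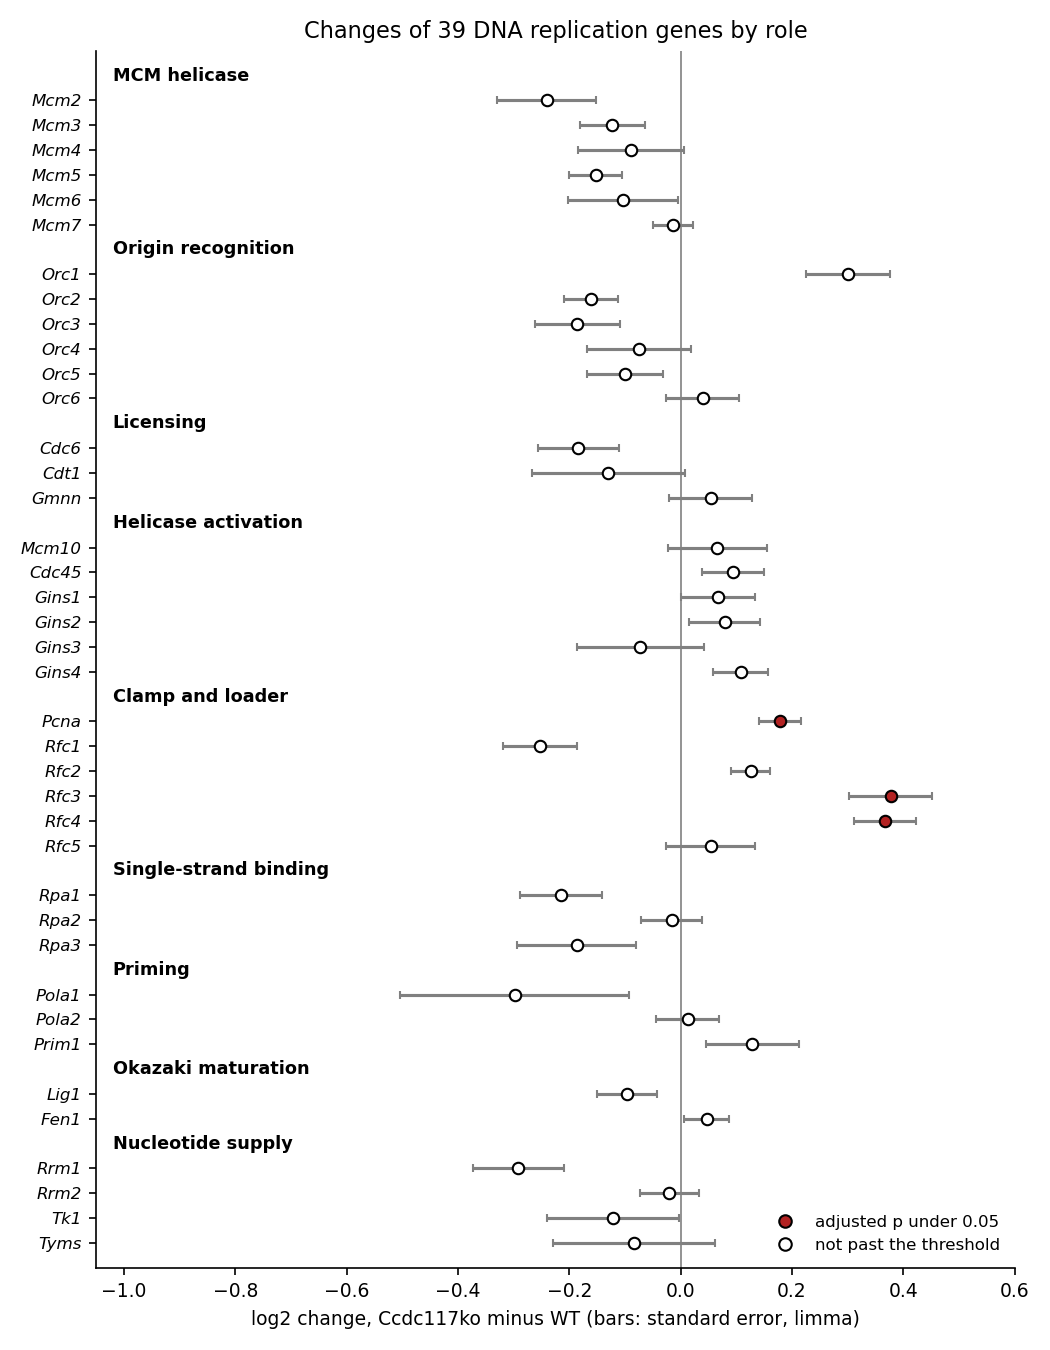
Log2 change (Ccdc117ko minus WT, horizontal axis) of each of the 39 replication genes, grouped by role, with the limma standard error as bars. The 3 filled points, Pcna at 0.18, Rfc3 at 0.38 and Rfc4 at 0.37, passed an adjusted p of 0.05; open points did not.

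The clamp and its loader held the 3 called members among 6. PCNA is a ring of identical subunits that slides along DNA behind the fork, and RFC is the ATP-driven machine of 1 large and 4 small subunits that opens the ring and closes it around the primed strand. On mm10 (GENCODE M21) Rfc4 spans chr16:23113943-23127737, Rfc3 chr5:151642756-151651242 and Pcna chr2:132249162-132253314, all on the minus strand. Rfc4, a small subunit, had 1453, 1575 and 1440 normalized counts in Ccdc117ko testes and 1164, 1104 and 1194 in WT testes. All 3 Ccdc117ko values lay above all WT values. The means were 1489 ± 74.5 in Ccdc117ko testes and 1154 ± 45.7 in WT testes (SD, n = 3 each), 1.29-fold, with a log2 change of 0.37 (SE 0.06, limma adjusted p = 0.0169). Rfc3, another small subunit, had 679, 611 and 626 normalized counts in Ccdc117ko testes and 531, 463 and 482 in WT testes, again without overlap. Its log2 change was 0.38 (SE 0.07, limma adjusted p = 0.0294), a 1.30-fold difference of means. Pcna had 4652, 4671 and 4677 normalized counts in Ccdc117ko testes and 4238, 4157 and 3980 in WT testes. The Ccdc117ko values were tightly grouped and the 2 sets did not overlap, with a log2 change of 0.18 (SE 0.04, limma adjusted p = 0.0335).

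The other loader subunits differed in sign. Rfc2, the small subunit with the highest count, had 9345, 9527 and 9155 normalized counts in Ccdc117ko testes and 8810, 8498 and 8382 in WT testes, without overlap (log2 change 0.13, SE 0.03, limma adjusted p = 0.0731). Rfc1, the large subunit that sets the canonical loader apart from its relatives, had 3098, 2810 and 3204 in Ccdc117ko testes and 3360, 3645 and 3856 in WT testes, all lower in Ccdc117ko testes (log2 change -0.25, SE 0.07, limma adjusted p = 0.0637); its library values are given because of its sign, a choice made after they were seen. Neither passed the threshold, and Rfc5, the last small subunit, overlapped between genotypes at a log2 change of 0.05 (limma adjusted p = 0.749).

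**Figure D2:**
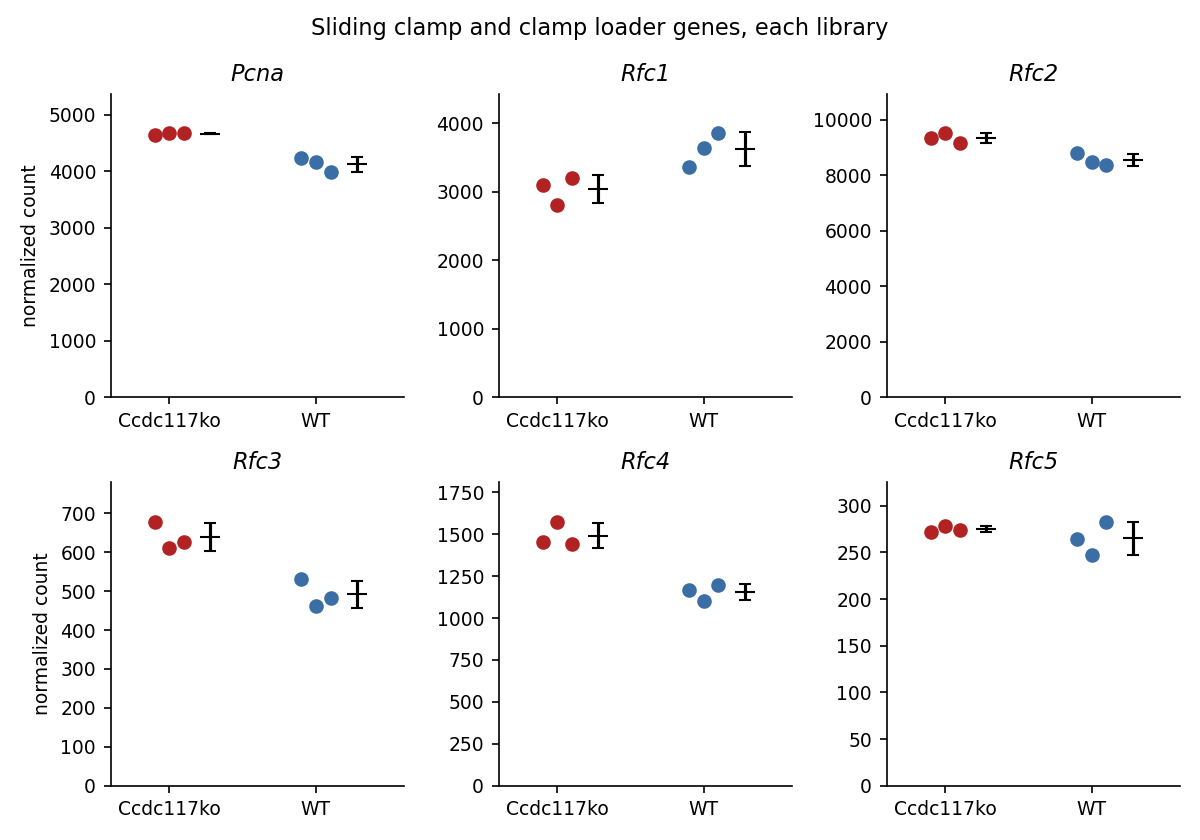
Normalized counts of the sliding clamp gene Pcna and the 5 clamp loader genes in each library (points), with the mean and SD beside them as a bar, Ccdc117ko left of WT, on axes that start at 0. Pcna, Rfc2, Rfc3 and Rfc4 are higher in all 3 Ccdc117ko libraries, Rfc1 is lower in all 3, and Rfc5 overlaps.

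The promoters of the called loader genes and their clamp are shown with those of Rfc1, the subunit that differed in sign, and of Mcm6, a helicase gene with several E2F-type matches, because E2F factors are known to drive many replication genes in S phase. Each is 300 bases from RefSeq on GRCm38.p6, with 250 before the annotated start, written 5′ to 3′ along the gene. All 5 genes lie on the minus strand. The windows are chr5:151651159-151651458 for Rfc3, chr16:23127681-23127980 for Rfc4, chr2:132253131-132253430 for Pcna, chr5:65335590-65335889 for Rfc1 and chr1:128359656-128359955 for Mcm6. Capitals mark E2F-type words (TTTCCCGC, TTTCGCGC, TTTGCCGC or TTTGGCGC) and CCAAT boxes on either strand, the latter read as CCAAT or ATTGG. In Mcm6 a pair of E2F-type words on opposite strands overlap in 1 capital run.
Rfc3: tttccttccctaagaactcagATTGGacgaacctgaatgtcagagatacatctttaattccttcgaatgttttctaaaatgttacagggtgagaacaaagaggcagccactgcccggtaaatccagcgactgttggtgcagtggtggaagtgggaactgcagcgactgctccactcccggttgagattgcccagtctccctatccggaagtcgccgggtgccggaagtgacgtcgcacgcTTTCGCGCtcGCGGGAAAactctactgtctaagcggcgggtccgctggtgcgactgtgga
Rfc4: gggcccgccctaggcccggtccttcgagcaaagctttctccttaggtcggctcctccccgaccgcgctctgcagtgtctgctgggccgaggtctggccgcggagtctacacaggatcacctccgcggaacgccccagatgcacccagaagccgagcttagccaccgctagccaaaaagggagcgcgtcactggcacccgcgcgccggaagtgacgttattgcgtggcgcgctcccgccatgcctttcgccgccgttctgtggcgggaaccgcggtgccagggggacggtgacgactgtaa
Pcna: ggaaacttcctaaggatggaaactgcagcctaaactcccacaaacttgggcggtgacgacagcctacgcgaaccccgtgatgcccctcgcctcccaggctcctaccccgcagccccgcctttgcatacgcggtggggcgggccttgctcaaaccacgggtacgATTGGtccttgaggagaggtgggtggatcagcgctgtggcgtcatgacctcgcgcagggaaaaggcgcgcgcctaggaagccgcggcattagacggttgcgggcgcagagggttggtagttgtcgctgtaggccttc
Rfc1: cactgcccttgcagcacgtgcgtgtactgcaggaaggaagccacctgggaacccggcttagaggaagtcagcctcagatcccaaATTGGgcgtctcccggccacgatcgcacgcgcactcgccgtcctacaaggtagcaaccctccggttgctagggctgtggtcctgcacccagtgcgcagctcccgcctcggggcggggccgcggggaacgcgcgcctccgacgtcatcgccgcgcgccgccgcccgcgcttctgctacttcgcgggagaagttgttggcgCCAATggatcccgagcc
Mcm6: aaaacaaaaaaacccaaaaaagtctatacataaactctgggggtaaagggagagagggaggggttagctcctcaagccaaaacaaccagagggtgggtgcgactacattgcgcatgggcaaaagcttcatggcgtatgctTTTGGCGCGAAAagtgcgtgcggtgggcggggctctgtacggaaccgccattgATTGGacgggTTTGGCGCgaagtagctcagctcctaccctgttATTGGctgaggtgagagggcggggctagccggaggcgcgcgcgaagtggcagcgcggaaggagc

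An E2F-type word was present in a promoter window of 12 of the 33 members with an entry, 36.4%, against 2.26% of all 32851 promoter windows. By window, the same unit as that background, 12 of the members' 40 windows held one, 30.0%. The members' windows and all windows were not matched for base composition or expression. Among the helicase genes 4 of the 5 with an entry had one, and among the licensing genes both did. Of the 5 clamp and loader genes with an entry only Rfc3 did, with 1 word on each strand at its start site, while Rfc4 and Rfc5 had neither motif, and Pcna and Rfc1 had CCAAT boxes alone. A CCAAT box was present in 24 of the 40 windows, 60.0%, against 37.4% of all windows. A match is a description of letters and says nothing about binding in these testes.

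With 1 library left out the sizes of these changes moved little and the calls were mostly lost. The log2 change ran from 0.33 to 0.39 for Rfc4, 0.33 to 0.43 for Rfc3 and 0.15 to 0.20 for Pcna. With any library other than WT replicate 1 left out, these genes were no longer called in limma, and the calls over all genes numbered 6 to 22 in those fits, against 2228 with all libraries. Without Ccdc117ko replicates 1, 2 and 3 in turn the adjusted p was 0.0652, 0.110 and 0.0845 for Rfc4, 0.0981, 0.115 and 0.103 for Rfc3, and 0.0979, 0.128 and 0.103 for Pcna. Without WT replicates 2 and 3 it was 0.0676 and 0.0911 for Rfc4, 0.0935 and 0.119 for Rfc3, and 0.0847 and 0.107 for Pcna. When the fit was limited to genes averaging 10 or more normalized counts, 16.6% of genes were called, 8.35% higher and 8.25% lower. The members called were then Rfc4, Rfc3, Pcna, Rfc2 and Orc1 higher and Rfc1, Rpa1 and Rrm1 lower. In that fit Rfc4 and Rfc3 remained called whichever library was left out (limma adjusted p of 0.00265 to 0.0178 and 0.0037 to 0.0337). Pcna then lost its call without Ccdc117ko replicate 2 (adjusted p = 0.0642) or WT replicate 3 (0.0714).

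The log2 changes of replication genes also ran with transcript length, as those of well-covered protein-coding genes did. Length bins were made of 14256 protein-coding genes averaging 50 or more normalized counts. Their median log2 change was 0.10 in the shortest of 5 bins and -0.14 in the longest. The longest annotated transcript has 1279 bases for Rfc4, 1518 for Pcna and 2726 for Rfc3, against 4751 for Rfc1, 4995 for Rfc2, 5077 for Rpa1 and 5475 for Rrm1. Across the 39 members Spearman's rho between log2 change and length was -0.44, given as a description of genes that share the same libraries. Once each library's smooth dependence on length and GC content was taken out, the log2 change of Pcna was 0.08 (limma adjusted p = 0.289), that of Rfc4 0.23 (0.0588) and that of Rfc3 0.36 (0.0384). In that fit 5.24% of genes were called, 3.39% higher and 1.85% lower, and the members called were Rfc3, Rfc2 at 0.24 (adjusted p = 0.0147) and Orc1 at 0.33 (0.0467), all higher. Rfc1, Rpa1 and Rrm1 had -0.17, -0.10 and -0.21 (limma adjusted p = 0.153, 0.479 and 0.133). With the principal transcript in place of the longest, a choice made after the data were seen, Rfc4 had an adjusted p of 0.0495 and Rfc3 one of 0.0629. The slope per doubling of length, relative to the mean of all libraries, was -0.0443, -0.0602 and -0.0242 on the log2 scale in Ccdc117ko libraries and 0.0447, 0.0243 and 0.0597 in WT libraries. The trend ran with genotype in all 6 libraries, so it cannot be told apart from a genotype change tied to length.

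**Figure D3:**
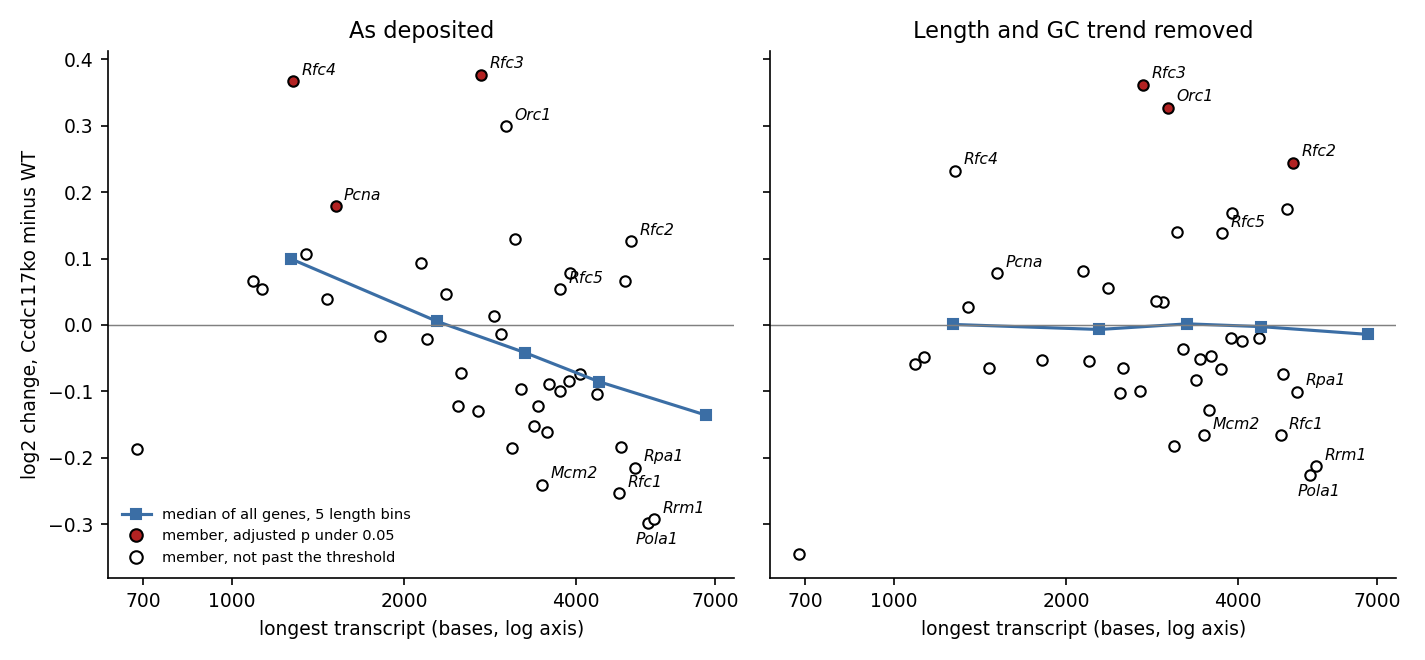
Log2 change (Ccdc117ko minus WT) of the 39 members against the length of the longest transcript (log axis), as deposited on the left and after removal of a length and GC trend on the right. Squares give the median of protein-coding genes averaging 50 or more normalized counts in 5 length bins, from 0.10 to -0.14 on the left. Filled points passed an adjusted p of 0.05.

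Genes of origin recognition and licensing had no call. Orc1, the ORC subunit whose level cycles with the cell cycle, had 384, 397 and 432 normalized counts in Ccdc117ko testes and 342, 329 and 313 in WT testes, without overlap, but missed the threshold (log2 change 0.30, SE 0.08, limma adjusted p = 0.0559). Orc2, which has the highest count of the complex, had 1097, 1109 and 1086 in Ccdc117ko testes and 1214, 1183 and 1286 in WT testes, lower without overlap (log2 change -0.16, SE 0.05, limma adjusted p = 0.0957). Orc3 (-0.19), Orc4 (-0.07), Orc5 (-0.10) and Orc6 (0.04) overlapped between genotypes. Cdc6, the loading ATPase, had 350, 379 and 396 normalized counts in Ccdc117ko testes and 431, 410 and 436 in WT testes, lower without overlap but not called (log2 change -0.18, SE 0.07, limma adjusted p = 0.18). Its partner Cdt1 had -0.13, and -0.26 to -0.0077 with 1 library left out. Gmnn, which encodes the Cdt1 inhibitor geminin, had 870, 994 and 876 in Ccdc117ko testes and 817, 931 and 890 in WT testes, an overlapping pair of sets with a log2 change of 0.05.

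With all libraries the 6 helicase subunit genes had log2 changes below 0, and none was called. Mcm7 was above 0 with upper-quartile scaling (0.01), the length and GC correction (0.03) or WT replicate 3 left out (0.01), and Mcm4 was above 0 without Ccdc117ko replicate 3 (0.0064). Mcm2 had 564, 480 and 504 normalized counts in Ccdc117ko testes and 562, 597 and 669 in WT testes, with an overlap made by Ccdc117ko replicate 1 and WT replicate 1 (log2 change -0.24, SE 0.09, limma adjusted p = 0.155). Mcm3 (-0.12) and Mcm5 (-0.15) were lower without overlap, at adjusted p of 0.256 and 0.101. Mcm4 had -0.09 and Mcm6 -0.10 (-0.18 to -0.0085 with 1 library left out). Mcm7, the subunit with the highest count, had 6940, 6823 and 6998 in Ccdc117ko testes and 6908, 6813 and 7239 in WT testes, a log2 change of -0.01 (SE 0.04). The set's median was -0.11, and -0.05 after the length and GC correction.

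Of the 6 genes that switch the helicase on, 5 had a log2 change above 0, 4 after the length and GC correction (Gins1 then -0.06), and none was called. Gins4, of the GINS complex, had 1537, 1543 and 1578 normalized counts in Ccdc117ko testes and 1402, 1401 and 1523 in WT testes, higher without overlap (log2 change 0.11, SE 0.05, limma adjusted p = 0.245). Cdc45, the helicase cofactor, was also higher without overlap at 0.09 (adjusted p = 0.372). Gins1 (0.07), Gins2 (0.08) and the initiation factor Mcm10 (0.07) overlapped, as did Gins3 at -0.07.

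Among the genes for single-strand binding, priming and joining, none was called. Rpa1, the large RPA subunit that also coats the cut ends of meiotic recombination, had 7245, 6534 and 6928 normalized counts in Ccdc117ko testes and 7193, 8108 and 8790 in WT testes. WT replicate 1 fell inside the Ccdc117ko range, and the log2 change was -0.21 (SE 0.07, limma adjusted p = 0.129). Rpa2 had -0.02 and Rpa3 -0.19. Pola1, the catalytic subunit of polymerase alpha, had the fewest reads of the group, with 60.0, 44.7 and 47.4 in Ccdc117ko testes and 69.5, 70.0 and 49.1 in WT testes (log2 change -0.30, SE 0.21). Its partner Pola2 had 1242, 1115 and 1233 in Ccdc117ko testes and 1175, 1164 and 1216 in WT testes (0.01, SE 0.06), and the primase gene Prim1 had 0.13. Lig1, which seals Okazaki fragments, had 1029, 1000 and 989 normalized counts in Ccdc117ko testes and 1018, 1094 and 1116 in WT testes (-0.10, SE 0.05). Fen1, the flap endonuclease, had 2054, 1970 and 2051 in Ccdc117ko testes and 1978, 1932 and 1971 in WT testes (0.05, SE 0.04).

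With all libraries the 4 nucleotide supply genes had log2 changes below 0, and none was called. Rrm2 was above 0 with upper-quartile scaling (0.0031) or without Ccdc117ko replicate 2 (0.000093), and Tyms was above 0 without WT replicate 3 (0.015). Rrm1, the large subunit of ribonucleotide reductase, had 2699, 2485 and 2905 normalized counts in Ccdc117ko testes and 2946, 3436 and 3533 in WT testes, without overlap (log2 change -0.29, SE 0.08, limma adjusted p = 0.0754). Rrm2, the small subunit that limits the enzyme in S phase, had -0.02 (SE 0.05). Thymidine kinase Tk1 had -0.12, with means of 87.0 normalized counts in Ccdc117ko testes and 94.7 in WT testes, and thymidylate synthase Tyms had -0.08.

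Per kilobase of principal transcript, the members spanned a wide range of levels, and subunits of 1 complex were far apart. Pcna was highest at 3074 ± 8.67 in Ccdc117ko testes and 2717 ± 86.9 in WT testes (SD, n = 3 each), and Pola1 lowest at 9.48 ± 1.52 in Ccdc117ko testes and 11.8 ± 2.22 in WT testes. Within the MCM ring, whose 6 subunits assemble in equal numbers, Mcm7 stood at 2347 normalized counts per kilobase over the 6 libraries, 22.5 times Mcm4. Mcm5, Mcm3 and Mcm6 lay close together below it at 313, 302 and 271. Within RFC the order per kilobase was Rfc2, Rfc4, Rfc1, Rfc3 and Rfc5, in RPA it was Rpa1, Rpa2 and Rpa3, and in ORC Orc5 was highest and Orc1 lowest. The per-kilobase level takes the annotated transcript as the one present in testis, which was not tested.

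**Figure D4:**
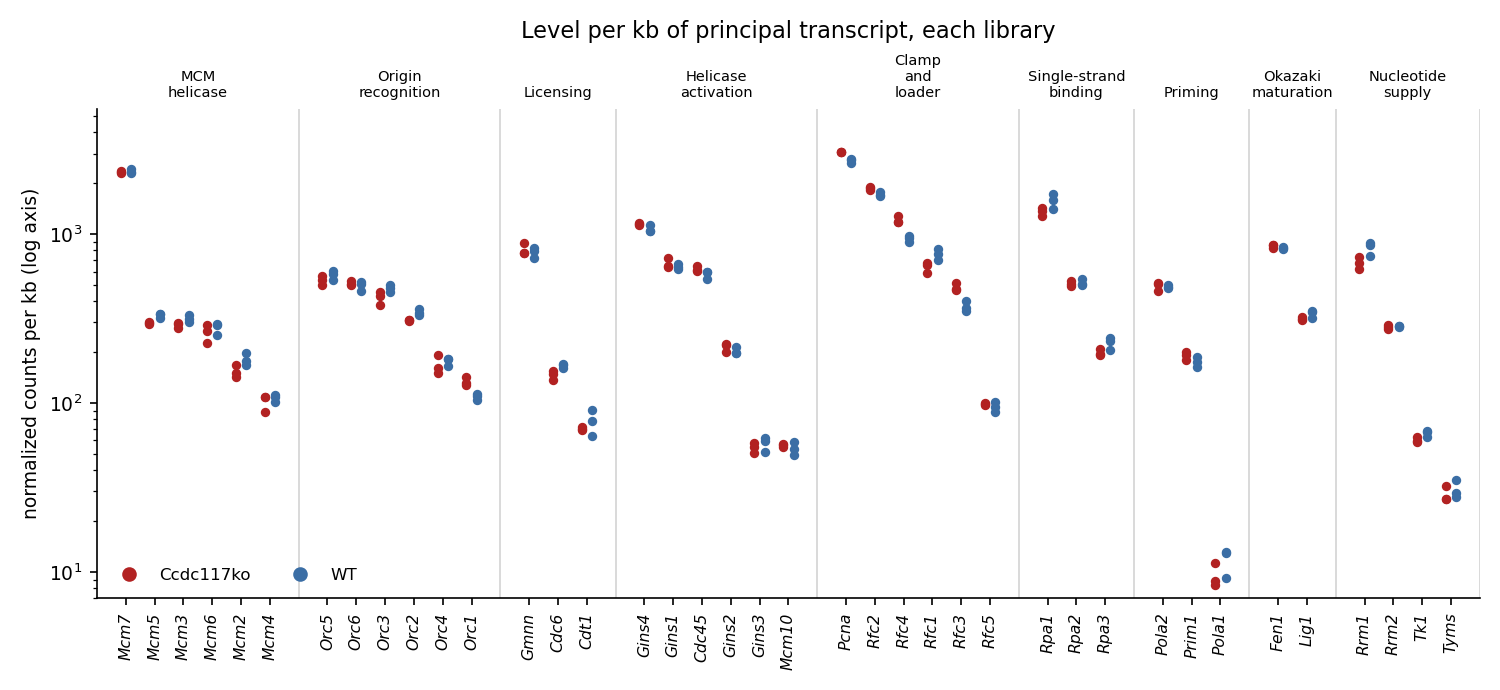
Normalized counts per kilobase of principal transcript (log axis) of the 39 members in each library, by role, with Ccdc117ko points left of WT points. Mcm7 stands 22.5 times above Mcm4 within the helicase, and the spread between genes is far larger than that between genotypes.

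Reads of some members can be shared with other genes. In Pcna 31.8% of the 50-base words of the longest transcript also occur in another gene, chiefly the pseudogene Pcna-ps2, which had 262 normalized counts on average in Ccdc117ko testes and 246 in WT testes. In Mcm7 26.0% do, chiefly in the predicted gene Gm5487. Exons of a gene on the other strand cover 12.7% of those of Rfc4 (Eif4a2), 15.1% of those of Rfc2 (Lat2) and 10.7% of those of Rfc5 (Wsb2). They cover 10.8% of those of Orc1 (Gm12743) and 29.8% of those of Orc2 (Nif3l1). For Fen1 the share is 84.2% (Tmem258 and Gm10143) and for Gins2 67.3% (Gse1). The counting step's use of strand is not given in the sources used here, so the values of these members are uncertain. The share of exons covered does not give the size of that uncertainty. Eif4a2 had a log2 change of -0.08, opposite in sign to Rfc4. Lat2 (-0.31) was opposite to Rfc2, Gse1 (-0.33, lower without overlap) to Gins2 and Gm10143 (-0.54) to Fen1. Gm12743 (0.38, higher without overlap) had the sign of Orc1, Tmem258 (0.12) that of Fen1 and Nif3l1 (-0.02) that of Orc2.

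Of 84 related genes in 9 lists, 2 were higher, 6 lower and 76 not called in limma, with a median log2 change of -0.07. The lists reach beyond replication itself, to genes of G1 to S control, mitotic proliferation and meiosis. The calls are 9.52% of these genes, against 6.80% of all genes tested, and the lower calls 7.14%, against 3.10%. With the minimum mean of 10 normalized counts 5 were higher and 9 lower, where 16.6% of all genes were called, 8.35% higher and 8.25% lower. After the length and GC correction 3 were higher and 3 lower, where 3.39% of all genes were called higher and 1.85% lower. Topoisomerases, which relieve the winding ahead of the fork and serve other processes too, made up 3 of the falls. Top1 averaged 1423 ± 22.9 normalized counts in Ccdc117ko testes and 1820 ± 76.4 in WT testes (SD, n = 3 each), a log2 change of -0.35 (SE 0.05, limma adjusted p = 0.0137). Top2a, the form of dividing cells, fell by 0.35 (adjusted p = 0.018) and Top2b fell by 0.32 (0.0269). After the length and GC correction Top1 and Top2a were still called (adjusted p = 0.0126 and 0.0185) and Top2b was not (0.0652). Among the other enzymes of that list, the RNase H and Dna2 genes that remove primers, none was called.

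Nucleotide enzymes outside the main group had Dut, the dUTPase, higher at 0.23 (SE 0.05, limma adjusted p = 0.0407) and Dck, the deoxycytidine kinase of the salvage pathway, lower at -0.41 (SE 0.09, adjusted p = 0.0393), with 7 of 9 not called. Neither call held after the length and GC correction (limma adjusted p = 0.0629 and 0.0519). With the principal transcript, chosen after the data were seen, Dut was called (limma adjusted p = 0.0477) and Dck was not (0.0576). In the list of chromatin assembly at the fork, Dnmt1, the maintenance DNA methyltransferase, fell by 0.27 (adjusted p = 0.0461, and 0.222 after the correction). Without the correction 7 of 8 were not called. After it Chaf1a was called higher at a log2 change of 0.13 (limma adjusted p = 0.0407), but not with the principal transcript (0.0808). Among 20 genes of G1 to S control, the inhibitor gene Cdkn1b averaged 295 ± 16.7 normalized counts in Ccdc117ko testes and 423 ± 27.4 in WT testes (log2 change -0.52, SE 0.08, limma adjusted p = 0.0172). Rbl2, a pocket protein that restrains E2F targets, rose by 0.23 (adjusted p = 0.0206), and both held after the correction (0.0167 and 0.0082). Of the 8 E2F genes none was called. Of the 24 alternatives run, Top1 was past the threshold in 19, Top2a, Cdkn1b and Rbl2 each in 18, Top2b in 14, Dut in 13, Dnmt1 in 11 and Dck in 9. The highest limma adjusted p over these alternatives was 0.107 for Top1, 0.114 for Top2a, 0.110 for Cdkn1b and 0.114 for Rbl2.

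The lists of polymerases delta and epsilon with Prim2 (9 genes) and of origin firing and fork protection (11 genes) gave no call in limma. Neither did mitotic proliferation (8 genes) or a list of meiotic genes (6 genes). In that order, they had 3, 1, 0 and 0 members higher and 0, 4, 3 and 1 lower at an unadjusted p under 0.05. At that threshold 11.1% of all genes tested were higher and 11.6% lower. With the minimum mean of 10, Pold3 (limma adjusted p = 0.0444) and Tipin (0.0387) were called higher, and Pold3 also after the length and GC correction (0.0311). By the highest mean, the genes to name are Pold3 (log2 change 0.13) and Pole3 (0.10) of the polymerases. Of origin firing they are Donson (-0.03) and Dbf4 (-0.10), and of mitosis Plk1 (0.00) and Ccnb1 (-0.07). Of the meiotic list they are Hsf2bp (0.07) and Mcm9 (-0.20). Genes of the RFC-like loaders, which use its small subunits with another large one, were also not called, with 2 higher and 1 lower at an unadjusted p under 0.05. Of these, Rad17 had -0.01 and Chtf8 0.11. A further pair was picked after their values were seen, as the most changed of that list. Dscc1, of the Ctf18 loader, averaged 513 normalized counts in Ccdc117ko testes and 343 in WT testes (log2 change 0.61, SE 0.16, limma adjusted p = 0.0669), and Atad5, of the loader that takes PCNA off DNA, averaged 199 in Ccdc117ko testes and 266 in WT testes (-0.41, SE 0.11, limma adjusted p = 0.0607). With the minimum mean of 10 both were called (limma adjusted p = 0.0123 and 0.0261), as was Dscc1 with voom (0.0419). Neither was called after the length and GC correction (limma adjusted p = 0.0641 and 0.135) or with the replicate number as a block (0.104 and 0.0935).

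Markers of the cells that could hold these transcripts also differed between genotypes. The counts below are of calls in limma, which made up 6.80% of all genes tested. Of 9 markers of undifferentiated spermatogonia 1, Etv5, was lower, and none was higher. Their median log2 change was -0.30, and 5 were lower without overlap, against 13.3% of all genes. The log2 changes ran from -0.48 to 0.57, with 6 of these markers below 0 and 3 above. With the minimum mean of 10, 3 were called lower, and 2 were after the length and GC correction. Their summed level was 4773 to 5311 normalized counts in Ccdc117ko testes and 5398 to 5590 in WT testes. Of 7 markers of differentiating spermatogonia 1, Kit, was lower, the median was -0.22, 6 had a log2 change below 0 and 3 were lower without overlap. Their sum was 30774 to 33409 in Ccdc117ko testes and 30726 to 33631 in WT testes, most of it Dmrtb1, with a mean of 29723. Without Dmrtb1, left out after its values were seen, the sum was 2260 to 2334 in Ccdc117ko testes and 2700 to 3005 in WT testes. Of 12 markers of early meiotic prophase 2 were higher and 2 lower, with sums of 54689 to 56129 in Ccdc117ko testes and 54367 to 55429 in WT testes. Round spermatid markers were higher in 7 of 8, and in 6 after the length and GC correction, with sums of 72782 to 76251 in Ccdc117ko testes and 59243 to 64995 in WT testes. Sertoli cell markers were lower in 6 of 12, and in 3 after that correction, with sums of 57224 to 59629 in Ccdc117ko testes and 62814 to 65099 in WT testes. Of 9 pachytene and later spermatocyte markers 2 were higher and 1 lower, of 7 elongating spermatid markers 1 was higher, and of 8 Leydig cell markers 3 were higher and 1 lower, the same counts as after the correction. Of 6 macrophage markers 1 was lower and of 4 myoid cell markers 1 was higher and 1 lower, none of them after the correction. Of 5 endothelial markers none was called, with 0 at an unadjusted p under 0.05. No marker of these lists was at 0 in any library, and their part in the changes of Rfc3, Rfc4 and Pcna was not tested.

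Of the 39 members, 8 have an FDR under 0.05 in the authors' deposited table, 5 higher and 3 lower in Ccdc117ko testes. Of all its 36652 genes, taken here without a minimum count, 11.5% do (5.78% higher and 5.77% lower). These 8 in the authors' deposited table are Rfc4, Rfc3, Pcna, Rfc2 and Orc1 higher (FDR 0.0286 for Orc1) and Rrm1, Rfc1 and Rpa1 lower (FDR 0.0033 for Rpa1). They are the same 8 genes that limma called with the higher filter.

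**Figure D5:**
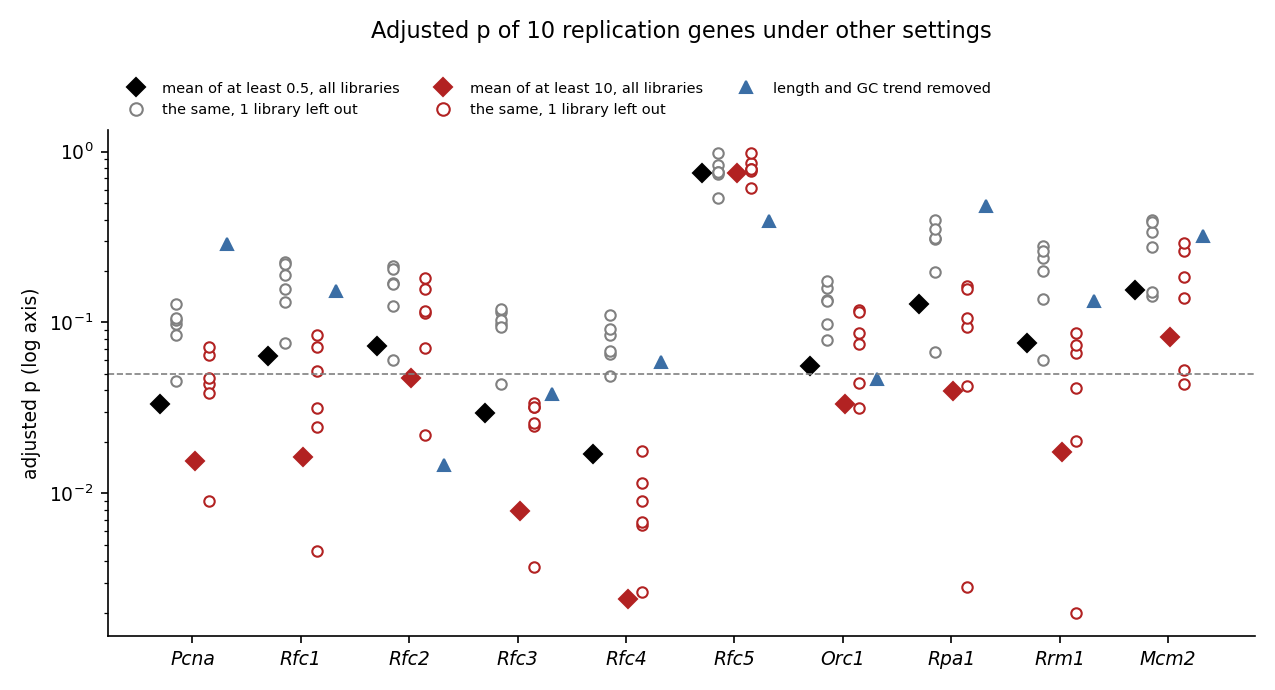
Limma adjusted p (log axis) of 10 replication genes at a minimum mean of 0.5 and of 10 normalized counts, each with all 6 libraries (diamonds) and with 1 left out (open circles), and after the length and GC correction (triangles); the dashed line marks 0.05. Rfc3 and Rfc4 stay under the line in all fits with the minimum of 10, and Rfc5 lies above it in every fit.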

How the data were processed

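RNA of 6 whole testes samples was extracted with TRIzol, treated with DNase and made into stranded mRNA libraries for Illumina sequencing, per the labels' protocols. STAR, DESeq2 and mm10 appear, unversioned, in the submitters' processing notes; how reads were counted, and whether by strand, is not given in the sources used here. One table, deposited by the authors, holds log2 values per library, with fold changes, p-values and FDR values; the log2 values were read as log2(normalized count + 1), a unit found from the values, since those under 500 reads gave whole reads within 0.01.

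Groups follow the genotype in the labels. Genes averaging 0.5 normalized counts or more were tested with limma 3.58.1 (R 4.3.3, trend, two-sided, Ccdc117ko minus WT) with Benjamini-Hochberg adjustment over all 32783. Alternatives changed the filter, pseudocount, scaling, model, length and GC correction and libraries. The test was checked on simulated data with an assumed spread and no length trend, and no result of that check is used here. Library values are given for called members and for the largest change and highest count in each role group. The members and lists were chosen with earlier results of these data known.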

Additional observations from a re-analysis of the deposited data

How the results depend on the processing

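The median log2 change of the members, -0.07, kept its direction in every alternative run, and was nearer 0, at -0.05 to -0.02, with any 1 library left out. The log2 change of 21 of the 39 members moved by over 1.5 times with some library left out. The number of genes called, 2228, was 3798 with a minimum mean of 10 normalized counts. With 1 library left out it was 22, 6 and 8 without Ccdc117ko replicates 1, 2 and 3, and 1268, 12 and 21 without WT replicates 1, 2 and 3; it ran from 1714 to 4021 with both changes. Members called higher numbered 5 with that minimum and 5 with upper-quartile scaling, 0 to 3 with 1 library left out and 2 to 5 with both changes. Members called lower numbered 3 with that minimum, 0 with 1 library left out and 0 to 4 with both changes. The filter changes the number of genes over which p-values are adjusted and the trend of the variance. The combined settings and the principal transcript were chosen after seeing the data.

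Whether same-numbered libraries were paired is not given in the labels. Correlations of same-numbered deviations were -0.0033, -0.0039 and 0.0061, and those of differently numbered libraries ran from -0.0091 to 0.0127. Taken over 22878 genes, such correlations cannot exclude a shared day or litter. The slope with transcript length was lowest in replicate 2 and highest in replicate 3 in both genotypes. With the replicate number as a block 703 genes were called, with 1 member higher (Rfc3), and with the block and the length and GC correction 408 genes, with 1 member higher (Rfc2).

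Uncalled members changed sign under some settings, and the cause was not tested. With the length and GC correction, with or without the block or the filter at 10, Mcm7 had 0.035, Orc6 -0.065, Gmnn -0.049 and Gins1 -0.059, and with the principal transcript 0.050, -0.074, -0.038 and -0.051. With upper-quartile scaling Mcm7 had 0.011, Rpa2 0.0075 and Rrm2 0.0031. With 1 library left out, the log2 change ran from -0.137 to 0.0064 for Mcm4, -0.031 to 0.012 for Mcm7, -0.015 to 0.076 for Orc6, -0.0085 to 0.096 for Gmnn, -0.040 to 0.018 for Rpa2 (0.0028 without Ccdc117ko replicate 1), -0.015 to 0.063 for Pola2 (-0.0099 without Ccdc117ko replicate 3), -0.038 to 0.000093 for Rrm2 and -0.169 to 0.015 for Tyms.

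The SE of the log2 change was largest for Pola1 (0.21) and Tyms (0.15), and changes of this size in these genes lie within the spread between libraries.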
